A study of Mus musculus with 18 samples.

Results

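Collagen chain genes encode the polypeptide chains that wind into triple helices to form collagens. They were taken as every gene of the deposited count table whose symbol is Col, a type number, the letter a and a chain number. The rule gave 44 genes of 50559, and 41 of them were among the 18452 genes with enough counts to test. The 3 below the filter were Col28a1, with 2 to 25 counts per library, Col10a1, with 0 to 16, and Col6a6, with 0 to 23. The libraries came from thalamus of wild-type (WT) mice, as 6 labelled intervene given Coll IV+remodelin, 6 labelled model given Coll IV, and 6 labelled control given saline. Remodelin is a small molecule described as an inhibitor of the acetyltransferase Nat10. The labels do not expand Coll IV, which is used here only as the name of the treatment and never for the type IV collagen genes. The labels give no age, sex, strain, dose or time after treatment. They also do not say that each library is a separate animal, and p-values then cover only the spread among the samples at hand.

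Basement membranes are thin sheets under endothelium, around pericytes and at the astrocyte border of the brain surface, and their network is built from type IV collagen and laminin. Fibrillar collagens, mainly types I, III and V, form the banded fibrils of connective tissue, and in brain their main known sources are fibroblasts of the meninges and of large vessels. Newly made chains are hydroxylated and glycosylated in the endoplasmic reticulum, fold into triple helices with the chaperone Hsp47 (gene Serpinh1), and after secretion the fibrillar ones are trimmed and cross-linked.

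Total counts ranged from 28481225 to 118461420 per library. Libraries 4 to 6 of each group stood apart from libraries 1 to 3 in many genes. This split was noticed in the data, and the labels name no batch, so differences between these 2 sets of libraries are given as a description of the samples. Of 12 thalamic neuron markers, Gbx2 and Shox2 were each at 0 in 1 library and the others at 0 in none. Their summed level, in CPM (counts scaled to a common library size, with TMM factors), was 521 to 730.1 in Coll IV plus remodelin libraries 4 to 6 and 648 to 729 in libraries 1 to 3. In the Coll IV group it was 232 to 334 in libraries 4 to 6 and 533 to 952 in libraries 1 to 3, and in the saline group 177 to 195 in libraries 4 to 6 and 800.1 to 956 in libraries 1 to 3. Tcf7l2, a transcription factor of thalamic neurons, was at 4.68, 3.81 and 5.04 CPM in saline libraries 4, 5 and 6 and at 98.6, 102 and 101 CPM in saline libraries 1, 2 and 3. Slc17a7, the vesicular glutamate transporter that prevails in cortex, was at 1582, 1669 and 1624 CPM in saline libraries 4, 5 and 6 and at 123, 53.5 and 557 CPM in saline libraries 1, 2 and 3. In saline these 2 markers did not overlap between the sets, and comparisons of the groups are given over all libraries and within each set.

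Levels of different chains were compared by the deposited FPKM, which divides counts by gene length. The chains with the highest median over the 18 libraries were Col9a3 with 2.16 FPKM, Col25a1 with 2.13 and Col9a2 with 1.75. Col9a3 and Col9a2 encode chains of type IX collagen, which decorates fibrils, and Col25a1 encodes a membrane-spanning collagen of neurons. Next came Col4a2 with 1.25 FPKM, Col1a2 with 1.06, Col6a1 with 1.01 and Col4a1 with 0.820. Col1a1 had a median of 0.485 FPKM and Col3a1 of 0.184, and the lowest of the 41 tested chains was Col4a3 with 0.0246. Neighbours in this order had overlapping ranges over the libraries. The 6 type IV chains made up 8.65% to 17.7% of the summed FPKM of all collagen chains in a library, and the 11 fibrillar chains 13.9% to 27.7%.

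**Figure D1:**
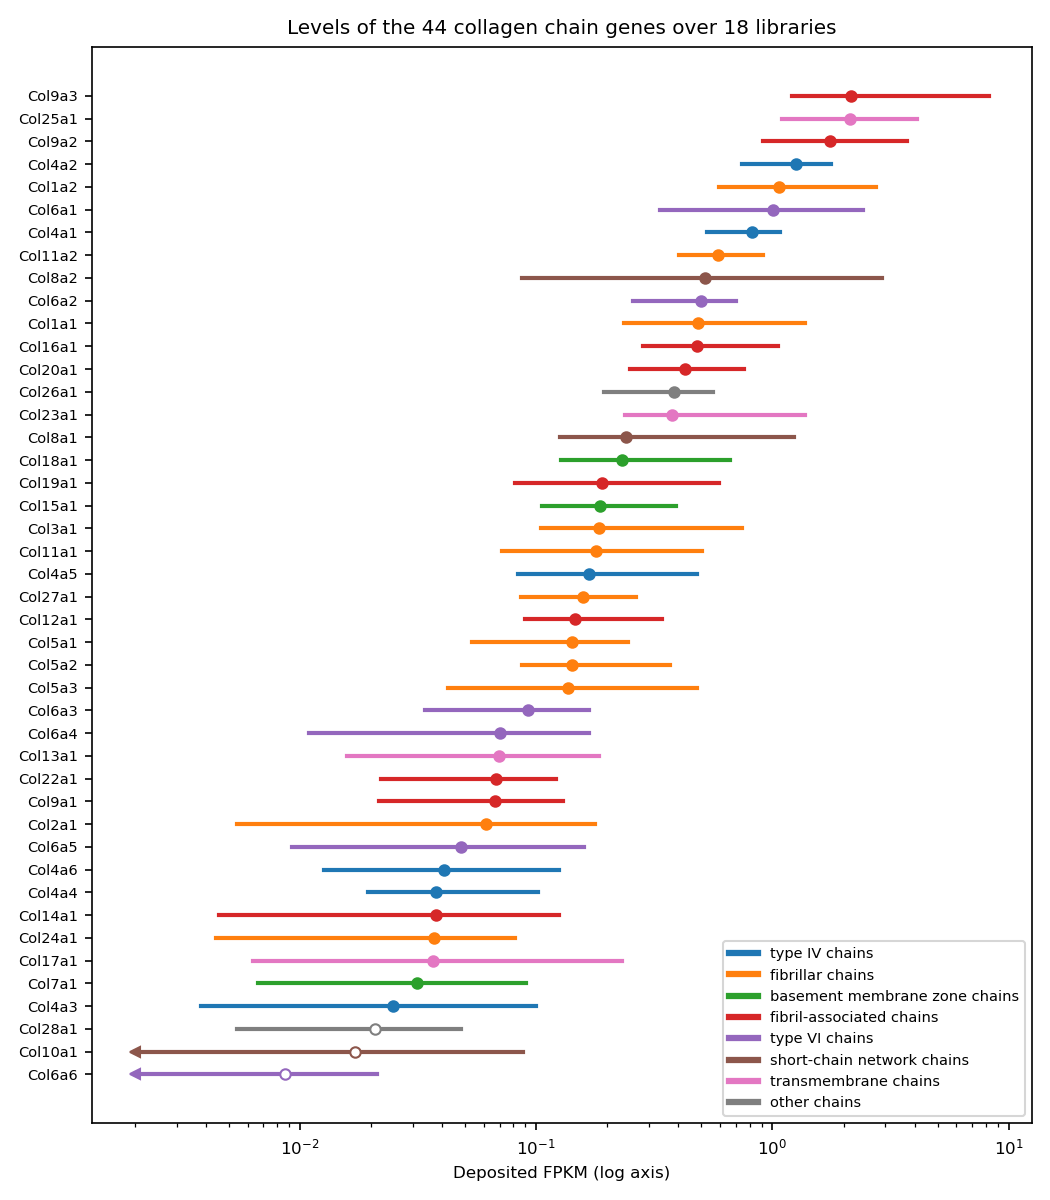
Deposited FPKM (log axis) of each collagen chain gene; a bar runs from the lowest to the highest of the 18 libraries, the point is the median, open points are the 3 genes below the filter, and an arrowhead marks a minimum of 0. Col9a3, Col25a1 and Col9a2 lead with medians of 2.16, 2.13 and 1.75 FPKM, and the bar of Col4a1 is much shorter than those of Col8a2 or Col3a1.

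Col4a1 and Col4a2 encode the 2 chains of the common basement membrane collagen, and their genes lie head to head. In RefSeq's table for GRCm38.p6 the Col4a1 window on the minus strand is chr8:11312777-11313076 and the Col4a2 window on the plus strand is chr8:11312555-11312854, each running from 250 bases before to 50 bases after the annotated start. The windows share 78 bases, and the annotated first exons overlap by 22 bases, since the starts lie at 11312826 for Col4a1 and at 11312805 for Col4a2. Both are printed 5′ to 3′ on their own strand because the 2 genes kept a narrow ratio in these libraries, and capitals mark the 78 shared bases.
Col4a1: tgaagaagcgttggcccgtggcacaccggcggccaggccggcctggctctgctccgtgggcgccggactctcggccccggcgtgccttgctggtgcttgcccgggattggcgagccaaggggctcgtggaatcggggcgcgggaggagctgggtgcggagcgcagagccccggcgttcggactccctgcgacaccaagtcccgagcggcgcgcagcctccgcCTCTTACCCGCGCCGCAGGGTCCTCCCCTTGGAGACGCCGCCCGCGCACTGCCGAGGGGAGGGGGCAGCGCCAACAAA
Col4a2: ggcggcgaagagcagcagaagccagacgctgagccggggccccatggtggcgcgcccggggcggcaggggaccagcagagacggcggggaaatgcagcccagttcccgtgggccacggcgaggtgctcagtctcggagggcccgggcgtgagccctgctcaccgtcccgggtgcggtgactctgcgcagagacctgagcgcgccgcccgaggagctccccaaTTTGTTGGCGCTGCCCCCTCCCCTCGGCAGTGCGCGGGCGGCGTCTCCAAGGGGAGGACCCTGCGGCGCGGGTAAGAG
Their FPKM ratio, Col4a1 over Col4a2, stayed between 0.527 and 0.707 in the 18 libraries.

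Col4a1 and Col4a2 lay within narrow ranges in all libraries, with 1 call between the 2 sets, for Col4a1 in saline. Col4a1 CPM in libraries 4, 5 and 6 were 9.56, 13.6 and 9.67 with Coll IV plus remodelin, 14.1, 15.2 and 13.8 with Coll IV and 16.3, 13.9 and 18.1 with saline. Col4a1 in libraries 1, 2 and 3 had 11.8, 12.996 and 12.7 CPM with Coll IV plus remodelin, 13.1, 14.3 and 10.2 CPM with Coll IV and 10.01, 13.1 and 11.7 CPM with saline. Col4a1 was higher in each of libraries 4 to 6 than in each of 1 to 3 in the saline group, and the 2 sets overlapped in the Coll IV plus remodelin and Coll IV groups. The log2 fold change of libraries 4 to 6 over libraries 1 to 3, with its standard error (SE), was -0.19 ± 0.16 (adjusted p = 0.446) for Col4a1 with Coll IV plus remodelin, 0.198 ± 0.16 (adjusted p = 0.397) with Coll IV and 0.48 ± 0.16 (adjusted p = 0.0242) with saline. The adjusted p comes from edgeR's quasi-likelihood test over all 18452 genes, with 0.05 as the threshold. The call in saline was lost for Col4a1 without saline libraries 1, 4 or 6 (adjusted p up to 0.103).

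Col4a2 CPM in libraries 4, 5 and 6 were 13.7, 16.1 and 10.7 with Coll IV plus remodelin, 16.1, 18.2 and 16.96 with Coll IV and 22.2, 16.96 and 20.2 with saline. Col4a2 in libraries 1, 2 and 3 had 15.3, 15.03 and 17.6 CPM with Coll IV plus remodelin, 18.2, 18.6 and 15.1 CPM with Coll IV and 12.4, 18.2 and 14.9 CPM with saline. Col4a2 values of the 2 sets overlapped in all 3 groups. Its log2 fold changes between the sets, -0.24 ± 0.16 with Coll IV plus remodelin, -0.02 ± 0.16 with Coll IV and 0.39 ± 0.16 with saline, did not pass (adjusted p = 0.322, 0.949 and 0.06398).

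The other 4 type IV genes were at lower levels. Col4a5 and Col4a6 are the X-linked pair whose chains serve basement membranes of smooth muscle and epithelia. Col4a5 CPM in libraries 4, 5 and 6 were 2.09, 1.54 and 1.504 with Coll IV plus remodelin, 1.12, 2.31 and 1.19 with Coll IV and 1.86, 1.73 and 1.39 with saline. Col4a5 in libraries 1, 2 and 3 had 3.56, 5.98 and 4.098 CPM with Coll IV plus remodelin, 4.17, 3.08 and 2.19 CPM with Coll IV and 2.38, 4.52 and 2.23 CPM with saline. Col4a5 was lower in each of libraries 4 to 6 than in each of 1 to 3 in the Coll IV plus remodelin and saline groups, and the 2 sets overlapped in the Coll IV group. Col4a6 CPM in libraries 4, 5 and 6 were 0.203, 0.469 and 0.273 with Coll IV plus remodelin, 0.446, 0.474 and 0.4197 with Coll IV and 0.769, 0.173 and 0.199 with saline. Col4a6 in libraries 1, 2 and 3 had 0.784, 1.36 and 1.304 CPM with Coll IV plus remodelin, 0.613, 0.928 and 0.947 CPM with Coll IV and 0.459, 1.63 and 0.719 CPM with saline. Col4a6 was lower in each of libraries 4 to 6 than in each of 1 to 3 in the Coll IV plus remodelin and Coll IV groups, and the 2 sets overlapped in the saline group. Col4a5 fell in libraries 4 to 6 by log2 -1.41 ± 0.35 (adjusted p = 0.0141) with Coll IV plus remodelin and -1.03 ± 0.35 (adjusted p = 0.0472) with Coll IV, against -0.86 ± 0.34 (adjusted p = 0.0546) with saline, which did not pass. Col4a6 fell by log2 -1.86 ± 0.57 (adjusted p = 0.0391) with Coll IV plus remodelin, against -0.89 ± 0.55 (adjusted p = 0.274) with Coll IV and -1.31 ± 0.56 (adjusted p = 0.07402) with saline. The calls with Coll IV plus remodelin were lost for Col4a5 without Coll IV plus remodelin libraries 5 or 6 (adjusted p up to 0.0641) and for Col4a6 in 6 of 18 omissions (adjusted p up to 0.126), and that with Coll IV for Col4a5 in 10 of 18 omissions (adjusted p up to 0.172). Col4a3 and Col4a4, chains of the glomerular basement membrane of the kidney, passed in no comparison.

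Markers of the cells that make vascular basement membrane were present in every library. The 10 endothelial markers summed to 220.2 to 244 CPM in Coll IV plus remodelin libraries 4 to 6 and 321 to 372 CPM in libraries 1 to 3. With Coll IV they summed to 238 to 264 and 260.1 to 375 CPM, and with saline to 223 to 268 and 236 to 295 CPM. The 8 pericyte markers summed to 98.5 to 125 and 187 to 219.9 CPM with Coll IV plus remodelin, 129 to 143 and 138 to 175 CPM with Coll IV, and 135 to 155 and 101 to 165 CPM with saline. None of these 18 markers was at 0 in any library, and their part in the type IV values was not tested. In bulk RNA of this kind, fewer cells of a type and less RNA per cell cannot be told apart.

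The other chains of the basement membrane zone were lower in libraries 4 to 6, Col15a1 and Col18a1 in all 3 groups and Col7a1 with Coll IV plus remodelin. Col15a1 and Col18a1 encode multiplexins, which tie vascular and epithelial basement membranes to the tissue beneath, and Col18a1 is the source of the fragment endostatin. Col15a1 CPM in libraries 4, 5 and 6 were 1.55, 1.24 and 1.88 with Coll IV plus remodelin, 1.76, 1.302 and 1.82 with Coll IV and 1.38, 1.21 and 1.66 with saline. Col15a1 in libraries 1, 2 and 3 had 2.53, 3.94 and 3.32 CPM with Coll IV plus remodelin, 3.37, 3.78 and 2.604 CPM with Coll IV and 2.51, 4.13 and 3.2004 CPM with saline. Col15a1 was lower in each of libraries 4 to 6 than in each of 1 to 3 in the Coll IV plus remodelin, Coll IV and saline groups. Col18a1 CPM in libraries 4, 5 and 6 were 2.703, 3.86 and 2.73 with Coll IV plus remodelin, 2.96, 2.07 and 1.89 with Coll IV and 2.91, 1.82 and 2.06 with saline. Col18a1 in libraries 1, 2 and 3 had 7.84, 9.18 and 7.05 CPM with Coll IV plus remodelin, 7.14, 6.89 and 6.45 CPM with Coll IV and 3.21, 7.35 and 3.45 CPM with saline. Col18a1 was lower in each of libraries 4 to 6 than in each of 1 to 3 in the Coll IV plus remodelin, Coll IV and saline groups. Col15a1 fell by log2 -1.07 ± 0.26 (adjusted p = 0.0133) with Coll IV plus remodelin, -0.998 ± 0.26 (adjusted p = 0.0148) with Coll IV and -1.21 ± 0.26 (adjusted p = 0.00173) with saline. Col18a1 fell by log2 -1.37 ± 0.29 (adjusted p = 0.00717) with Coll IV plus remodelin, -1.56 ± 0.29 (adjusted p = 0.00285) with Coll IV and -1.04 ± 0.29 (adjusted p = 0.00991) with saline.

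Col7a1 encodes the chain of anchoring fibrils, the cords that fix epithelium to connective tissue. Col7a1 CPM in libraries 4, 5 and 6 were 0.473, 0.469 and 0.137 with Coll IV plus remodelin, 0.446, 0.355 and 0.2798 with Coll IV and 0.705, 0.468 and 0.631 with saline. Col7a1 in libraries 1, 2 and 3 had 1.75, 0.808 and 1.06 CPM with Coll IV plus remodelin, 0.736, 1.13 and 0.769 CPM with Coll IV and 0.524, 1.08 and 0.503 CPM with saline. Col7a1 was lower in each of libraries 4 to 6 than in each of 1 to 3 in the Coll IV plus remodelin and Coll IV groups, and the 2 sets overlapped in the saline group. Col7a1 fell by log2 -1.73 ± 0.47 (adjusted p = 0.0217) with Coll IV plus remodelin, against -1.26 ± 0.46 (adjusted p = 0.0659) with Coll IV and -0.22 ± 0.44 (adjusted p = 0.724) with saline, which did not pass. Left out one at a time, single libraries ended the calls of Col15a1 without Coll IV plus remodelin library 5 (adjusted p up to 0.0608) and Col15a1 without Coll IV libraries 2 or 5 (adjusted p up to 0.0745). The saline call of Col18a1 was lost for Col18a1 without saline libraries 2 or 5 (adjusted p up to 0.0927), and that of Col7a1 with Coll IV plus remodelin for Col7a1 without Coll IV plus remodelin libraries 1 or 6 (adjusted p up to 0.102).

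The fibrillar chains that passed between the sets were all lower in libraries 4 to 6. Of the 11 measured, 6 fell with Coll IV plus remodelin, 6 with Coll IV and 5 with saline, and 0 rose. Over all 41 chains, 0 rose and 12 fell with Coll IV plus remodelin, where 14.9% of all genes tested were called, 7.76% higher and 7.16% lower. With Coll IV 1 rose and 13 fell, against 18.7% of all genes, 8.91% higher and 9.78% lower. With saline 6 rose and 13 fell, against 38.2% of all genes, 18.6% higher and 19.6% lower. The median log2 fold change of the 41 chains was -0.87 with Coll IV plus remodelin, -0.84 with Coll IV and -0.60 with saline, beside -0.01, -0.01 and -0.02 over all genes. Under an unadjusted p of 0.05 were 19 chains with Coll IV plus remodelin, 22 with Coll IV and 24 with saline, beside 31%, 34.2% and 47% of all genes. Libraries 5 and 6 of the Coll IV plus remodelin group each left 6 calls there when omitted, and Coll IV library 6 left 3 in its group.

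Col1a1 CPM in libraries 4, 5 and 6 were 2.77, 4.895 and 5.57 with Coll IV plus remodelin, 4.52, 3.02 and 2.87 with Coll IV and 5.96, 5.34 and 4.31 with saline. Col1a1 in libraries 1, 2 and 3 had 10.4, 15.6 and 12.9 CPM with Coll IV plus remodelin, 6.13, 9.61 and 10.3 CPM with Coll IV and 3.85, 12.8 and 7.05 CPM with saline. Col1a1 was lower in each of libraries 4 to 6 than in each of 1 to 3 in the Coll IV plus remodelin and Coll IV groups, and the 2 sets overlapped in the saline group. Col1a2 CPM in libraries 4, 5 and 6 were 6.89, 9.79 and 12.5 with Coll IV plus remodelin, 8.26, 9.47 and 6.37 with Coll IV and 9.03, 9.71 and 11.3 with saline. Col1a2 in libraries 1, 2 and 3 had 25.8, 27.4 and 26.9 CPM with Coll IV plus remodelin, 13.1, 22.7 and 23.7 CPM with Coll IV and 8.63, 24.5 and 14.8 CPM with saline. Col1a2 was lower in each of libraries 4 to 6 than in each of 1 to 3 in the Coll IV plus remodelin and Coll IV groups, and the 2 sets overlapped in the saline group. Col3a1 CPM in libraries 4, 5 and 6 were 1.15, 1.94 and 1.504 with Coll IV plus remodelin, 1.51, 1.54 and 1.75 with Coll IV and 1.28, 2.08 and 1.79 with saline. Col3a1 in libraries 1, 2 and 3 had 6.84, 6.14 and 7.45 CPM with Coll IV plus remodelin, 2.45, 4.28 and 4.17 CPM with Coll IV and 1.93, 7.78 and 3.45 CPM with saline. Col3a1 was lower in each of libraries 4 to 6 than in each of 1 to 3 in the Coll IV plus remodelin and Coll IV groups, and the 2 sets overlapped in the saline group. These 3 genes encode both chains of type I collagen and the chain of type III, which form the bulk of connective tissue fibrils. Col1a1 fell by log2 -1.56 ± 0.37 (adjusted p = 0.0129) with Coll IV plus remodelin and -1.32 ± 0.37 (adjusted p = 0.0234) with Coll IV, against -0.59 ± 0.36 (adjusted p = 0.216) with saline, which did not pass. Col1a2 fell by log2 -1.46 ± 0.32 (adjusted p = 0.00968) with Coll IV plus remodelin and -1.302 ± 0.32 (adjusted p = 0.0133) with Coll IV, against -0.67 ± 0.31 (adjusted p = 0.109) with saline. Col3a1 fell in all 3, by log2 -2.15 ± 0.39 (adjusted p = 0.00382) with Coll IV plus remodelin, -1.18 ± 0.39 (adjusted p = 0.0427) with Coll IV and -1.32 ± 0.38 (adjusted p = 0.0121) with saline. The Coll IV calls were lost for Col1a1 without Coll IV libraries 2, 3, 5 or 6 (adjusted p up to 0.0869), for Col1a2 without Coll IV libraries 2 or 6 (adjusted p up to 0.0609) and for Col3a1 in 10 of 18 omissions (adjusted p up to 0.151), and the saline call for Col3a1 without saline libraries 2 or 4 (adjusted p up to 0.148). Saline library 2 held the highest Col1a1 and Col3a1 of its group, 12.8 and 7.78 CPM.

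**Figure D2:**
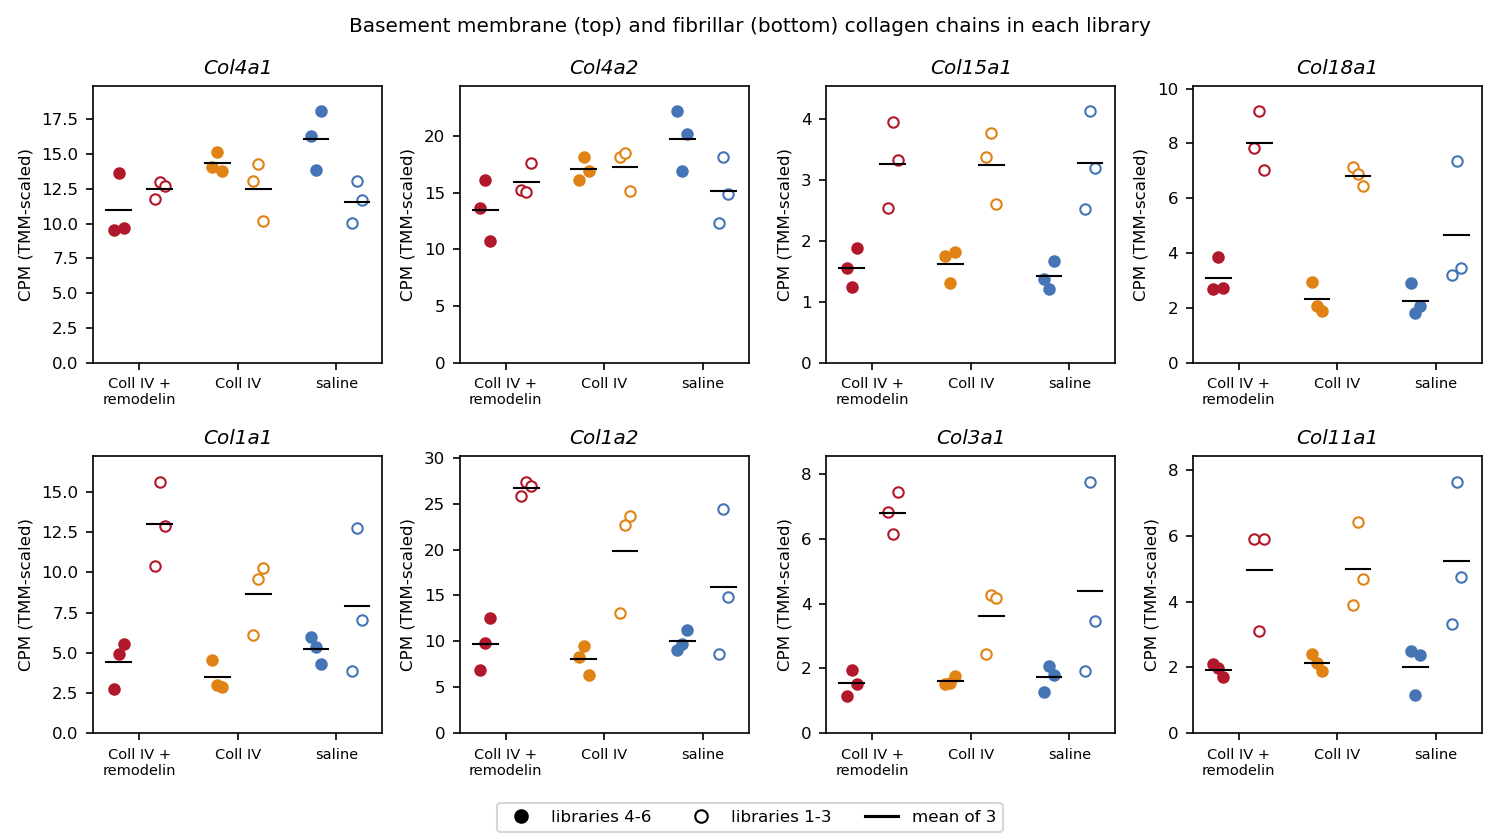
CPM of 4 basement membrane chains (top) and 4 fibrillar chains (bottom) in each of the 18 libraries, by group, with libraries 4 to 6 as filled and 1 to 3 as open points and a line at the mean of 3. Col4a1 and Col4a2 stay within 9.56 to 18.1 and 10.7 to 22.2 CPM throughout, whereas the filled points of Col15a1, Col3a1 and Col11a1 lie low in every group.

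The windows of Col1a2, chr6:4505368-4505667, and of Col3a1, chr1:45311288-45311587, both on the plus strand of GRCm38.p6 in RefSeq's table, are printed as the fibrillar counterparts of the type IV pair. Capitals mark the CCAAT, GC and TATA boxes on either strand.
Col1a2: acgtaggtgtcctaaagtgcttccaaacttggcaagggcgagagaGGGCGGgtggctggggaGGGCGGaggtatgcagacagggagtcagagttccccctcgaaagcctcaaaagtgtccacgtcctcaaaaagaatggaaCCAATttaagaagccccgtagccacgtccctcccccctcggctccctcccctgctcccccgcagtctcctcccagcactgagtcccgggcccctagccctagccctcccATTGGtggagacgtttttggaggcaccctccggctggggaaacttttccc
Col3a1: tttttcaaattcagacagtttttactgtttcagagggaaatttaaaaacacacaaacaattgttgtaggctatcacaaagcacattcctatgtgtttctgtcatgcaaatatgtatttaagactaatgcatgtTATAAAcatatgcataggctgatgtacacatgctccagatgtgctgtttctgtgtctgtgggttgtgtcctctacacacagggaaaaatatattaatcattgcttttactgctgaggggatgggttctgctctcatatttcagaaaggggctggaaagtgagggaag
Of the 44 genes, 35 were in that table, with 38 windows of 300 bases. On either strand, CCAAT was found in 34.2% of these windows and in 37.4% of all 32851 windows of that length. GGGCGG, the GC box, was found in 60.5% and 35.7%, TATAAA, the TATA box, in 13.2% and 13.6%, and CANNTG, the E-box, in 52.6% and 72.3%. None of these 4 motifs contains another, though neighbouring matches can share letters, and a match describes letters only.

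The smaller fibrillar chains include type V, which starts fibrils and limits their width, and type XI, its relative in cartilage. Col11a1 CPM in libraries 4, 5 and 6 were 2.09, 1.98 and 1.71 with Coll IV plus remodelin, 2.399, 2.13 and 1.89 with Coll IV and 2.498, 1.14 and 2.39 with saline. Col11a1 in libraries 1, 2 and 3 had 5.92, 3.104 and 5.899 CPM with Coll IV plus remodelin, 3.89, 6.43 and 4.68 CPM with Coll IV and 3.32, 7.66 and 4.75 CPM with saline. Col11a1 was lower in each of libraries 4 to 6 than in each of 1 to 3 in the Coll IV plus remodelin, Coll IV and saline groups. Col5a2 CPM in libraries 4, 5 and 6 were 1.62, 1.21 and 1.37 with Coll IV plus remodelin, 1.84, 1.36 and 1.61 with Coll IV and 1.73, 1.77 and 1.39 with saline. Col5a2 in libraries 1, 2 and 3 had 2.71, 2.49 and 3.54 CPM with Coll IV plus remodelin, 2.64, 2.35 and 2.55 CPM with Coll IV and 1.87, 4.58 and 2.52 CPM with saline. Col5a2 was lower in each of libraries 4 to 6 than in each of 1 to 3 in the Coll IV plus remodelin, Coll IV and saline groups. Col11a1 fell by log2 -1.37 ± 0.35 (adjusted p = 0.0165) with Coll IV plus remodelin, -1.22 ± 0.34 (adjusted p = 0.0221) with Coll IV and -1.39 ± 0.34 (adjusted p = 0.00464) with saline. Col5a2 fell by log2 -1.06 ± 0.29 (adjusted p = 0.0229) with Coll IV plus remodelin and -0.86 ± 0.28 (adjusted p = 0.02396) with saline, against -0.65 ± 0.29 (adjusted p = 0.1201) with Coll IV, which did not pass. Col5a1 CPM in libraries 4, 5 and 6 were 1.52, 1.41 and 1.26 with Coll IV plus remodelin, 2.76, 2.55 and 3.25 with Coll IV and 4.07, 2.77 and 2.02 with saline. Col5a1 in libraries 1, 2 and 3 had 2.89, 3.69 and 2.17 CPM with Coll IV plus remodelin, 3.28, 2.09 and 2.31 CPM with Coll IV and 0.885, 2.38 and 1.798 CPM with saline. Col5a1 was lower in each of libraries 4 to 6 than in each of 1 to 3 in the Coll IV plus remodelin group, and the 2 sets overlapped in the Coll IV and saline groups. Col5a3 CPM in libraries 4, 5 and 6 were 1.89, 1.91 and 1.67 with Coll IV plus remodelin, 1.17, 1.24 and 1.26 with Coll IV and 1.47, 0.867 and 0.531 with saline. Col5a3 in libraries 1, 2 and 3 had 1.71, 3.43 and 1.61 CPM with Coll IV plus remodelin, 5.61, 2.68 and 2.75 CPM with Coll IV and 2.85, 4.97 and 1.29 CPM with saline. Col5a3 was lower in each of libraries 4 to 6 than in each of 1 to 3 in the Coll IV group, and the 2 sets overlapped in the Coll IV plus remodelin and saline groups. Col5a1 fell with Coll IV plus remodelin, by log2 -1.06 ± 0.34 (adjusted p = 0.0465), whereas its values of 0.15 ± 0.33 with Coll IV and 0.84 ± 0.33 with saline did not pass. Col5a3 fell by log2 -1.59 ± 0.45 (adjusted p = 0.02404) with Coll IV and -1.67 ± 0.46 (adjusted p = 0.008899) with saline, against -0.302 ± 0.45 with Coll IV plus remodelin. With Coll IV plus remodelin the calls were lost for Col11a1 without Coll IV plus remodelin libraries 1, 3, 5 or 6 (adjusted p up to 0.0727), for Col5a2 without Coll IV plus remodelin libraries 1, 3, 5 or 6 (adjusted p up to 0.09295) and for Col5a1 in 13 of 18 omissions (adjusted p up to 0.143). With Coll IV they were lost for Col11a1 without Coll IV libraries 2, 4, 5 or 6 (adjusted p up to 0.113) and for Col5a3 without Coll IV libraries 1, 4, 5 or 6 (adjusted p up to 0.0901), and with saline for Col5a2 without saline libraries 2, 4 or 6 (adjusted p up to 0.233) and for Col5a3 without saline library 2 (adjusted p up to 0.0624).

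Col2a1, the chain of cartilage collagen, and Col27a1, a fibrillar chain of developing cartilage, complete the called members. Col2a1 CPM in libraries 4, 5 and 6 were 0.203, 0.939 and 0.547 with Coll IV plus remodelin, 0.279, 0.237 and 0.6296 with Coll IV and 0.192, 0.139 and 0.0664 with saline. Col2a1 in libraries 1, 2 and 3 had 0.855, 1.23 and 1.55 CPM with Coll IV plus remodelin, 0.828, 1.06 and 0.651 CPM with Coll IV and 1.22, 1.99 and 1.15 CPM with saline. Col2a1 was lower in each of libraries 4 to 6 than in each of 1 to 3 in the Coll IV and saline groups, and the 2 sets overlapped in the Coll IV plus remodelin group. Col27a1 CPM in libraries 4, 5 and 6 were 1.49, 2.92 and 2.53 with Coll IV plus remodelin, 1.51, 1.78 and 1.96 with Coll IV and 2.56, 2.39 and 2.26 with saline. Col27a1 in libraries 1, 2 and 3 had 4.49, 2.97 and 2.98 CPM with Coll IV plus remodelin, 4.35, 4.51 and 3.14 CPM with Coll IV and 3.51, 4.19 and 2.48 CPM with saline. Col27a1 was lower in each of libraries 4 to 6 than in each of 1 to 3 in the Coll IV plus remodelin and Coll IV groups, and the 2 sets overlapped in the saline group. Col2a1 fell by log2 -3.41 ± 0.55 (adjusted p = 0.000242) with saline, against -1.105 ± 0.49 (adjusted p = 0.133) with Coll IV plus remodelin and -1.16 ± 0.51 (adjusted p = 0.117) with Coll IV, which did not pass. Saline libraries 4, 5 and 6 held only 6, 8 and 2 counts of Col2a1. Col27a1 fell by log2 -1.19 ± 0.27 (adjusted p = 0.00792) with Coll IV, against -0.59 ± 0.27 (adjusted p = 0.144) with Coll IV plus remodelin and -0.500 ± 0.26 (adjusted p = 0.143) with saline. Col11a2 and Col24a1 passed in no comparison.

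A ratio of the 2 marker chains does not depend on library scaling. Col1a1 counts per Col4a1 count ranged from 0.199 to 0.576 in the 9 libraries numbered 4 to 6 and from 0.385 to 1.204 in the 9 numbered 1 to 3. The log2 ratio was lower by a mean difference of -1.28 in libraries 4 to 6, and the values were -1.39 with Coll IV plus remodelin, -1.53 with Coll IV and -0.92 with saline. An exact permutation test (two-sided, 8000 arrangements within groups) gave p = 0.0005, and 0.002 after Benjamini-Hochberg adjustment over the 4 ratio tests. This test was added after the values were seen. The split into sets was itself noticed in these data, so the p describes these samples only. Between treatments, with arrangements held within sets, the mean log2 ratio difference was 0.66 for Coll IV plus remodelin over Coll IV (exact permutation p = 0.03, adjusted 0.06), 0.52 for Coll IV plus remodelin over saline (p = 0.095, adjusted 0.127) and -0.14 for Coll IV over saline (p = 0.62, adjusted 0.62). None of these 3 passed after adjustment.

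Summed markers of meningeal fibroblasts were lower in libraries 4 to 6 with Coll IV plus remodelin and with Coll IV, as the fibrillar sums were, and overlapped between the sets in saline. Of 11 markers, 10 were in the table and none was at 0 in any library. Their sum was 38.9 to 120.0 CPM in Coll IV plus remodelin libraries 4 to 6 and 216 to 334 CPM in libraries 1 to 3. With Coll IV it was 52.6 to 77.8 and 135 to 223 CPM, and with saline 59.1 to 77.7 and 66.8 to 222 CPM. Among the 10 markers, 6 fell with Coll IV plus remodelin, 2 with Coll IV and 1 with saline, and 0 rose, beside 7.16%, 9.78% and 19.6% of all genes called lower. The 1 of 10 in saline is below that share. The summed CPM of the 11 fibrillar chains was 27.5 to 35.9 and 75.03 to 76.4 with Coll IV plus remodelin, 30.5 to 32.6 and 56.4 to 65.7 with Coll IV, and 35.2 to 42.7 and 34.9 to 80.7 with saline, in libraries 4 to 6 and 1 to 3. The part of these cells in the fibrillar values was not tested.

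**Figure D3:**
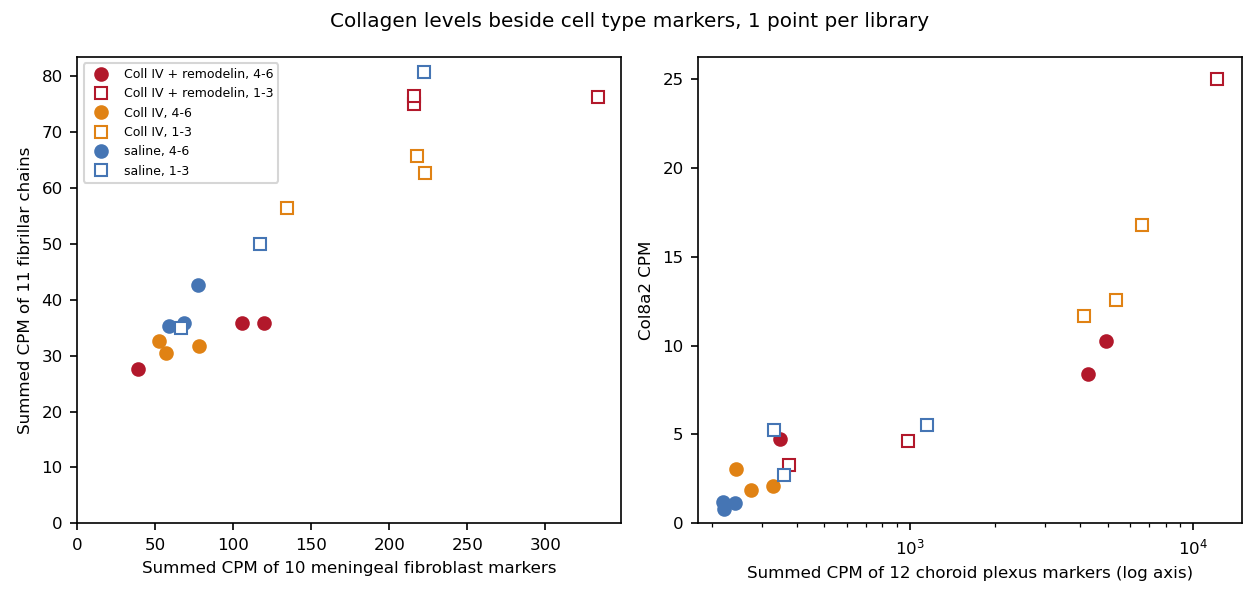
Left, summed CPM of the 11 fibrillar chains against summed CPM of 10 meningeal fibroblast markers; right, Col8a2 CPM against summed CPM of 12 choroid plexus markers on a log axis, with 1 point per library, filled for libraries 4 to 6 and open for 1 to 3. Libraries with many fibroblast markers had high fibrillar sums, and Coll IV plus remodelin library 2 holds both the highest choroid plexus sum and the highest Col8a2 level, 25.0 CPM.

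The fibril-associated chains were split. These collagens attach to fibrils or to basement membranes without forming fibrils themselves. Col16a1 was low in libraries 4 to 6 of all 3 groups. Col16a1 CPM in libraries 4, 5 and 6 were 5.203, 3.79 and 4.31 with Coll IV plus remodelin, 4.66, 4.88 and 4.16 with Coll IV and 5.28, 4.28 and 4.08 with saline. Col16a1 in libraries 1, 2 and 3 had 10.9, 8.24 and 12.02 CPM with Coll IV plus remodelin, 6.53, 12.6 and 7.31 CPM with Coll IV and 7.67, 12.6 and 7.62 CPM with saline. Col16a1 was lower in each of libraries 4 to 6 than in each of 1 to 3 in the Coll IV plus remodelin, Coll IV and saline groups. Col16a1 fell by log2 -1.23 ± 0.25 (adjusted p = 0.00623) with Coll IV plus remodelin, -0.94 ± 0.25 (adjusted p = 0.0169) with Coll IV and -1.03 ± 0.25 (adjusted p = 0.00415) with saline. The Coll IV call was lost for Col16a1 without Coll IV libraries 2, 4 or 6 (adjusted p up to 0.132).

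In saline, 4 fibril-associated chains went the other way. Col19a1 CPM in libraries 4, 5 and 6 were 3.04, 3.52 and 6.02 with Coll IV plus remodelin, 10.4, 7.96 and 8.43 with Coll IV and 15.5, 11.9 and 12.8 with saline. Col19a1 in libraries 1, 2 and 3 had 5.74, 3.88 and 4.502 CPM with Coll IV plus remodelin, 7.57, 4.74 and 4.44 CPM with Coll IV and 2.097, 2.53 and 4.17 CPM with saline. Col19a1 was higher in each of libraries 4 to 6 than in each of 1 to 3 in the Coll IV and saline groups, and the 2 sets overlapped in the Coll IV plus remodelin group. Col12a1 CPM in libraries 4, 5 and 6 were 2.64, 3.12 and 2.91 with Coll IV plus remodelin, 4.32, 5.92 and 4.23 with Coll IV and 9.38, 7.33 and 5.58 with saline. Col12a1 in libraries 1, 2 and 3 had 3.67, 3.85 and 4.01 CPM with Coll IV plus remodelin, 4.44, 2.88 and 4.26 CPM with Coll IV and 3.13, 4.61 and 2.59 CPM with saline. Col12a1 was lower in each of libraries 4 to 6 than in each of 1 to 3 in the Coll IV plus remodelin group, it was higher in each of libraries 4 to 6 than in each of 1 to 3 in the saline group, and the 2 sets overlapped in the Coll IV group. Col19a1, which mouse studies place in hippocampal interneurons, rose by log2 2.22 ± 0.29 (adjusted p = 5.38e-05) with saline, against -0.17 ± 0.29 (adjusted p = 0.739) with Coll IV plus remodelin and 0.68 ± 0.28 (adjusted p = 0.10002) with Coll IV, which did not pass. Col12a1, a chain of fibril surfaces in tendon and other dense tissue, rose by log2 1.11 ± 0.24 (adjusted p = 0.00185) with saline, against -0.41 ± 0.24 (adjusted p = 0.266) with Coll IV plus remodelin and 0.32 ± 0.24 (adjusted p = 0.362) with Coll IV. Col20a1 CPM in libraries 4, 5 and 6 were 3.55, 3.92 and 3.52 with Coll IV plus remodelin, 5.64, 5.71 and 6.51 with Coll IV and 7.33, 9.501 and 7.04 with saline. Col20a1 in libraries 1, 2 and 3 had 3.71, 7.403 and 4.19 CPM with Coll IV plus remodelin, 7.33, 5.73 and 4.47 CPM with Coll IV and 5.07, 3.56 and 3.96 CPM with saline. Col20a1 was higher in each of libraries 4 to 6 than in each of 1 to 3 in the saline group, and the 2 sets overlapped in the Coll IV plus remodelin and Coll IV groups. Col22a1 CPM in libraries 4, 5 and 6 were 1.01, 0.872 and 0.8203 with Coll IV plus remodelin, 1.84, 2.101 and 1.19 with Coll IV and 1.47, 1.595 and 1.89 with saline. Col22a1 in libraries 1, 2 and 3 had 1.64, 2.13 and 1.18 CPM with Coll IV plus remodelin, 1.9004, 1.06 and 1.24 CPM with Coll IV and 0.393, 0.844 and 1.08 CPM with saline. Col22a1 was lower in each of libraries 4 to 6 than in each of 1 to 3 in the Coll IV plus remodelin group, it was higher in each of libraries 4 to 6 than in each of 1 to 3 in the saline group, and the 2 sets overlapped in the Coll IV group. Col20a1 rose by log2 0.92 ± 0.24 (adjusted p = 0.00679) and Col22a1 by 1.16 ± 0.36 (adjusted p = 0.01897) with saline, and neither passed in the other 2 groups. The saline call was lost for Col22a1 without saline libraries 1 or 6 (adjusted p up to 0.0949).

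Markers of cortical and hippocampal neurons had higher sums in saline libraries 4 to 6 than in saline libraries 1 to 3. The 12 genes summed to 1006 to 2063 CPM in Coll IV plus remodelin libraries 4 to 6 and 612 to 1522 CPM in libraries 1 to 3. With Coll IV the sums were 1946 to 2237 and 943 to 1848 CPM, and with saline 2653 to 2839.8 and 206 to 1455 CPM. In libraries 4 to 6, 1 of the 12 rose and 0 fell with Coll IV plus remodelin, where 7.76% of all genes were called higher and 7.16% lower. With Coll IV 2 rose and 2 fell, beside 8.91% and 9.78% of all genes, and with saline 7 rose and 2 fell, beside 18.6% and 19.6%. None of the 12 was at 0 in any library, and their part in the values of Col19a1, Col12a1, Col20a1 and Col22a1 was not tested.

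The type IX chains Col9a3 and Col9a2 had the highest median FPKM among the fibril-associated members. Col9a2 CPM in libraries 4, 5 and 6 were 13.2, 5.26 and 10.6 with Coll IV plus remodelin, 9.43, 8.38 and 8.04 with Coll IV and 6.98, 6.41 and 7.202 with saline. Col9a2 in libraries 1, 2 and 3 had 15.4, 12.4 and 14.8 CPM with Coll IV plus remodelin, 9.29, 13.5 and 13.7 CPM with Coll IV and 9.82, 19.2 and 8.52 CPM with saline. Col9a2 was lower in each of libraries 4 to 6 than in each of 1 to 3 in the saline group, and the 2 sets overlapped in the Coll IV plus remodelin and Coll IV groups. Col9a3 CPM in libraries 4, 5 and 6 were 11.1, 20.2 and 16.9 with Coll IV plus remodelin, 9.82, 10.9 and 8.08 with Coll IV and 9.06, 7.37 and 9.59 with saline. Col9a3 in libraries 1, 2 and 3 had 14.8, 48.9 and 14.7 CPM with Coll IV plus remodelin, 23.1, 32.01 and 21.6 CPM with Coll IV and 15.6, 11.7 and 11.8 CPM with saline. Col9a3 was lower in each of libraries 4 to 6 than in each of 1 to 3 in the Coll IV and saline groups, and the 2 sets overlapped in the Coll IV plus remodelin group. Col9a2 fell by log2 -0.86 ± 0.302 (adjusted p = 0.0334) with saline, against -0.55 ± 0.301 (adjusted p = 0.2299) with Coll IV plus remodelin and -0.496 ± 0.301 (adjusted p = 0.262) with Coll IV. Col9a3 fell by log2 -1.41 ± 0.39 (adjusted p = 0.0225) with Coll IV, against -0.704 ± 0.38 (adjusted p = 0.224) with Coll IV plus remodelin and -0.596 ± 0.38 (adjusted p = 0.2401) with saline. The calls were lost for Col9a2 without saline libraries 2, 4, 5 or 6 (adjusted p up to 0.251) and for Col9a3 without Coll IV libraries 2, 4 or 6 (adjusted p up to 0.0971).

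Type VI collagen forms beaded filaments around cells. Col6a1 CPM in libraries 4, 5 and 6 were 4.798, 5.77 and 4.61 with Coll IV plus remodelin, 9.07, 18.4 and 14.3 with Coll IV and 16.6, 14.3 and 16.99 with saline. Col6a1 in libraries 1, 2 and 3 had 7.2002, 8.41 and 7.64 CPM with Coll IV plus remodelin, 7.72, 5.83 and 7.81 CPM with Coll IV and 8.64, 7.23 and 2.73 CPM with saline. Col6a1 was lower in each of libraries 4 to 6 than in each of 1 to 3 in the Coll IV plus remodelin group, and it was higher in each of libraries 4 to 6 than in each of 1 to 3 in the Coll IV and saline groups. Col6a1 rose by log2 0.96 ± 0.31 (adjusted p = 0.0386) with Coll IV and 1.34 ± 0.31 (adjusted p = 0.00304) with saline, against -0.61 ± 0.31 (adjusted p = 0.193) with Coll IV plus remodelin, which did not pass. Col6a5 CPM in libraries 4, 5 and 6 were 1.89, 1.27 and 0.752 with Coll IV plus remodelin, 0.725, 1.42 and 1.75 with Coll IV and 0.256, 0.173 and 0.398 with saline. Col6a5 in libraries 1, 2 and 3 had 0.285, 1.36 and 0.838 CPM with Coll IV plus remodelin, 1.53, 0.663 and 0.947 CPM with Coll IV and 1.92, 2.83 and 0.3596 CPM with saline. Col6a5 values of the 2 sets overlapped in all 3 groups. Col6a5 fell by log2 -2.68 ± 0.69 (adjusted p = 0.00609) with saline, against 0.65 ± 0.63 (adjusted p = 0.521) with Coll IV plus remodelin and 0.300 ± 0.62 (adjusted p = 0.765) with Coll IV. Saline libraries 4, 5 and 6 held only 8, 10 and 12 counts of Col6a5. The Coll IV call was lost for Col6a1 in 5 of 18 omissions (adjusted p up to 0.147). Col6a2 and Col6a3, the partners of Col6a1 in the main type VI molecule, and Col6a4 passed in no comparison.

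Col8a1 and Col8a2 encode the chains of type VIII collagen, a hexagonal network best known from the cornea and from vessel walls. Col8a2 CPM in libraries 4, 5 and 6 were 4.73, 10.3 and 8.41 with Coll IV plus remodelin, 2.12, 3.08 and 1.89 with Coll IV and 1.15, 1.21 and 0.797 with saline. Col8a2 in libraries 1, 2 and 3 had 4.63, 25.02 and 3.29 CPM with Coll IV plus remodelin, 11.6, 16.8 and 12.5 CPM with Coll IV and 5.51, 5.24 and 2.73 CPM with saline. Col8a2 was lower in each of libraries 4 to 6 than in each of 1 to 3 in the Coll IV and saline groups, and the 2 sets overlapped in the Coll IV plus remodelin group. Col8a1 CPM in libraries 4, 5 and 6 were 1.49, 4.22 and 2.94 with Coll IV plus remodelin, 2.29, 1.83 and 1.33 with Coll IV and 2.31, 1.77 and 1.79 with saline. Col8a1 in libraries 1, 2 and 3 had 2.99, 12.03 and 2.17 CPM with Coll IV plus remodelin, 6.38, 4.51 and 8.58 CPM with Coll IV and 2.49, 3.26 and 2.09 CPM with saline. Col8a1 was lower in each of libraries 4 to 6 than in each of 1 to 3 in the Coll IV group, and the 2 sets overlapped in the Coll IV plus remodelin and saline groups. Col8a2 fell by log2 -2.53 ± 0.62 (adjusted p = 0.0137) with Coll IV and -2.09 ± 0.64 (adjusted p = 0.0193) with saline, against -0.49 ± 0.57 (adjusted p = 0.602) with Coll IV plus remodelin. Col8a1 fell by log2 -1.83 ± 0.53 (adjusted p = 0.0274) with Coll IV, against -0.99 ± 0.52 (adjusted p = 0.207) with Coll IV plus remodelin and -0.42 ± 0.52 (adjusted p = 0.561) with saline. The Coll IV calls were lost for Col8a2 without Coll IV libraries 2, 4 or 6 (adjusted p up to 0.0566) and for Col8a1 without Coll IV libraries 3, 4, 5 or 6 (adjusted p up to 0.0974), and the saline call for Col8a2 in 5 of 18 omissions (adjusted p up to 0.0621).

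Choroid plexus markers stood high in the same libraries as Col8a2. The 12 markers summed to 349 to 4912 CPM in Coll IV plus remodelin libraries 4 to 6 and 374 to 12164 CPM in libraries 1 to 3. With Coll IV they summed to 243 to 329 and 4117 to 6617 CPM, and with saline to 219 to 241 and 331 to 1151 CPM. Ttr, the transthyretin gene that defines choroid plexus epithelium, was at 101, 3944 and 3404 CPM in Coll IV plus remodelin libraries 4, 5 and 6, at 92.6, 40.3 and 48.1 CPM in Coll IV libraries 4, 5 and 6 and at 0.256, 0.589 and 0.398 CPM in saline libraries 4, 5 and 6. In libraries 1, 2 and 3 Ttr was at 564, 10061 and 64.1 CPM with Coll IV plus remodelin, 3193, 5452 and 4286 CPM with Coll IV and 688, 23.4 and 70.2 CPM with saline. Otx2 and Slc4a5 were each at 0 in 2 libraries and Kcne2 in 1, and the part of this tissue in the values of Col8a1, Col8a2 and Col9a3 was not tested.

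Among the membrane-spanning chains and Col26a1, 2 members passed between the sets. Col25a1 CPM in libraries 4, 5 and 6 were 42.1, 38.8 and 20.1 with Coll IV plus remodelin, 24.2, 29.004 and 18.4 with Coll IV and 23.2, 24.2 and 29.2 with saline. Col25a1 in libraries 1, 2 and 3 had 32.7, 32.2 and 46.4 CPM with Coll IV plus remodelin, 34.3, 42.1 and 40.9 CPM with Coll IV and 52.1, 62.7 and 42.8 CPM with saline. Col25a1 was lower in each of libraries 4 to 6 than in each of 1 to 3 in the Coll IV and saline groups, and the 2 sets overlapped in the Coll IV plus remodelin group. Col26a1 CPM in libraries 4, 5 and 6 were 2.91, 2.21 and 2.46 with Coll IV plus remodelin, 2.46, 1.598 and 3.36 with Coll IV and 2.37, 2.53 and 1.59 with saline. Col26a1 in libraries 1, 2 and 3 had 3.35, 4.14 and 3.602 CPM with Coll IV plus remodelin, 2.88, 3.88 and 3.14 CPM with Coll IV and 3.43, 4.22 and 3.56 CPM with saline. Col26a1 was lower in each of libraries 4 to 6 than in each of 1 to 3 in the Coll IV plus remodelin and saline groups, and the 2 sets overlapped in the Coll IV group. Col25a1 fell by log2 -1.04 ± 0.24 (adjusted p = 0.00375) and Col26a1 by -0.78 ± 0.25 (adjusted p = 0.0209) with saline, and neither passed in the other 2 groups. The saline call was lost for Col26a1 without saline libraries 2 or 6 (adjusted p up to 0.0886). Col13a1, Col17a1 and Col23a1 passed in no comparison.

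**Figure D4:**
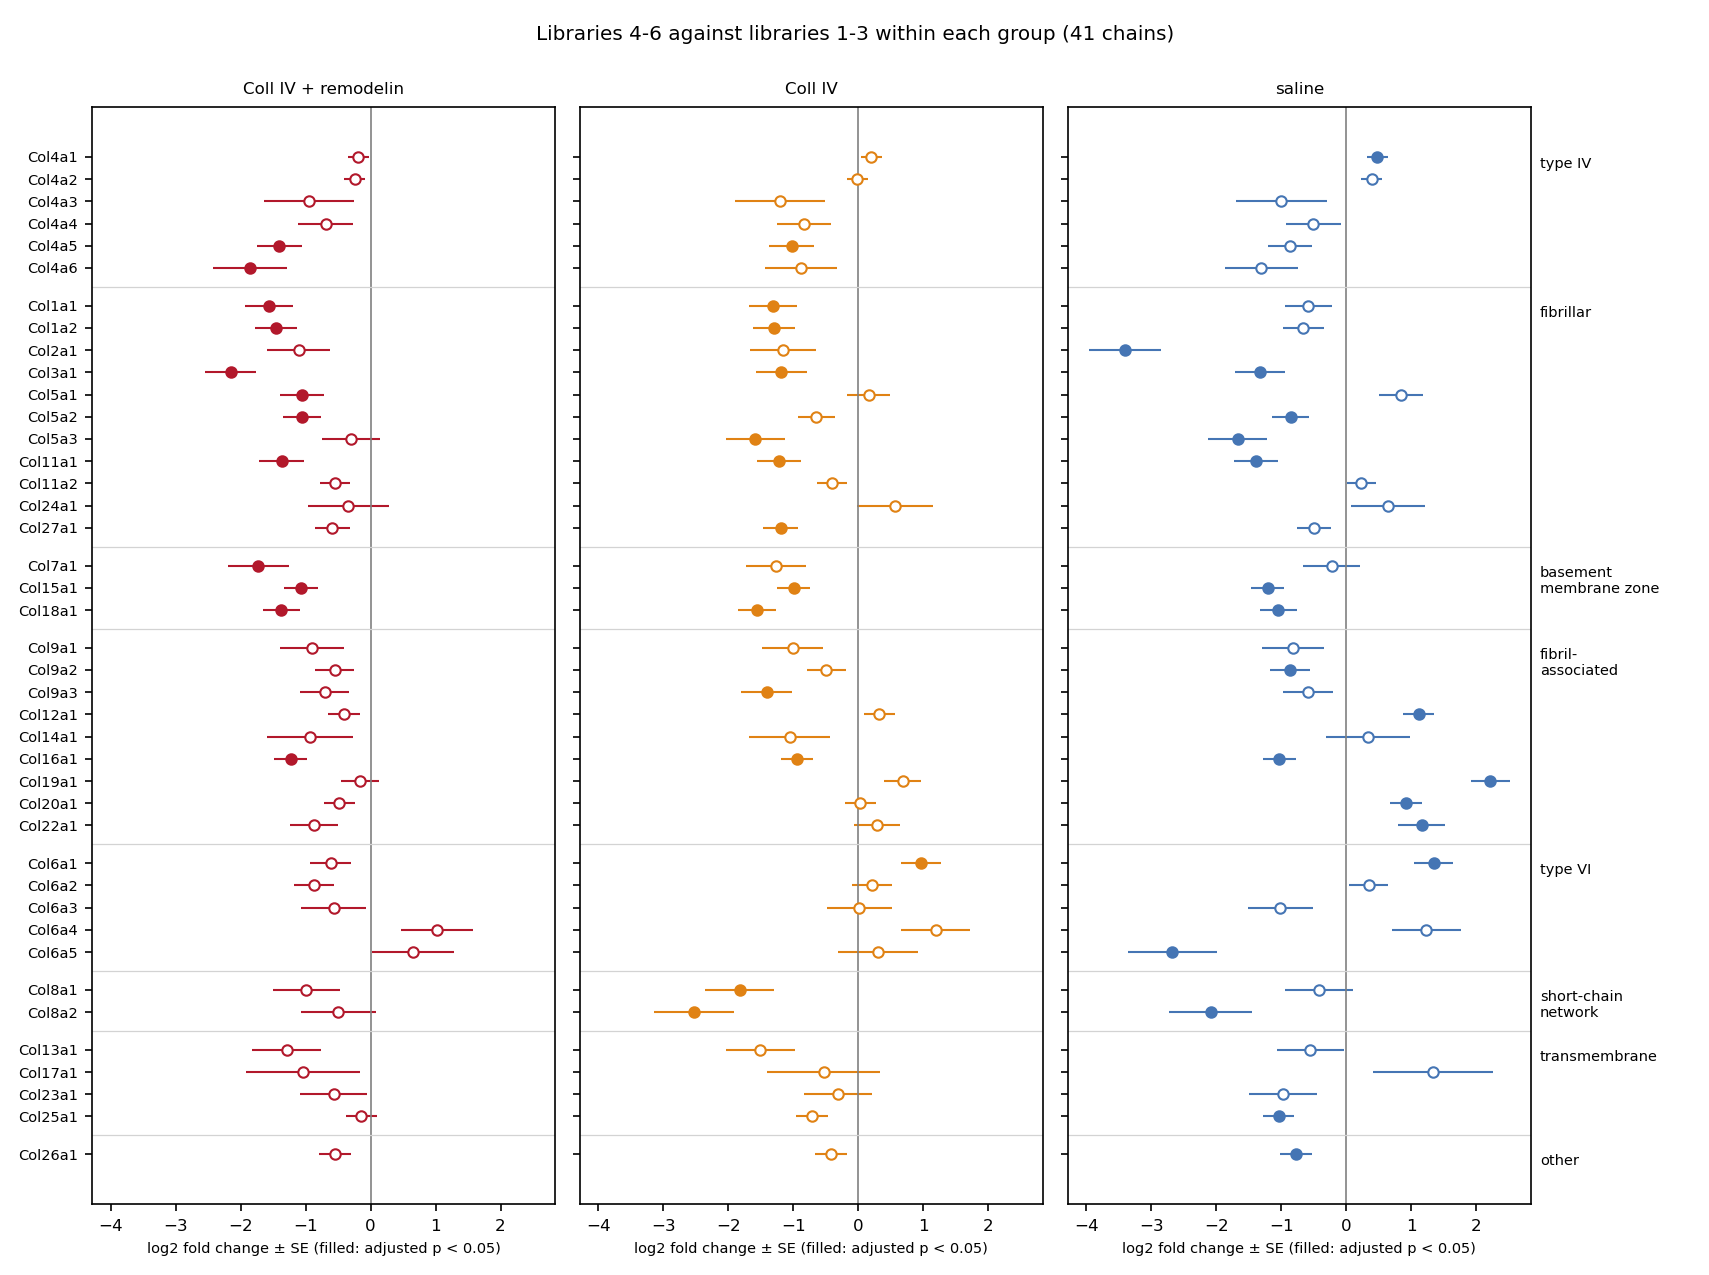
Log2 fold change ± SE of libraries 4 to 6 over libraries 1 to 3 for the 41 tested chains by class, in the Coll IV plus remodelin, Coll IV and saline groups; filled points passed an adjusted p of 0.05. Fibrillar and basement membrane zone chains lie mostly left of 0 in each panel, and Col4a1 and Col4a2 lie between -0.24 and 0.48.

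Treatment differences among collagen chains were not detected over all libraries. The question of these comparisons is what Coll IV does to thalamus and what remodelin changes on top of it. For Coll IV over saline, 0 of 41 chains and 0% of all genes tested passed edgeR's quasi-likelihood test, and 2 chains, Col14a1 and Col8a2, were under an unadjusted p of 0.05, as were 1.68% of all genes. For Coll IV plus remodelin over Coll IV, 0 chains and 0% of all genes passed, and 0 chains against 2.88% of all genes were under an unadjusted 0.05. For Coll IV plus remodelin over saline, 0 chains and 0% of all genes passed, and 4 chains, Col8a2, Col12a1, Col9a3 and Col6a1, against 8.41% of all genes were under an unadjusted 0.05. DESeq2 called 0 chains in each of these 3 comparisons. The log2 fold change of Col4a1 was -0.04 ± 0.14 for Coll IV over saline, -0.196 ± 0.14 for Coll IV plus remodelin over Coll IV and -0.24 ± 0.14 for Coll IV plus remodelin over saline. For Col1a1 these values were -0.105 ± 0.42, 0.52 ± 0.42 and 0.41 ± 0.42 in the same order of comparisons. The 3 comparisons share libraries with each other. Their fit had a mean per group and no term for the sets, so the split between the sets counted as spread among libraries.

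Within libraries 1 to 3, 0 chains and 0% of all genes passed in each of the 3 treatment comparisons by edgeR, and DESeq2 also called 0 chains. Under an unadjusted p of 0.05 were 7 chains for Coll IV over saline, 1 for Coll IV plus remodelin over Coll IV and 9 for Coll IV plus remodelin over saline, beside 5.83%, 3.79% and 8.56% of all genes. Within libraries 4 to 6, Coll IV over saline also gave 0 chains and 0% of all genes by edgeR and 0 chains by DESeq2, with 3 chains and 10.2% of all genes under an unadjusted 0.05.

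Coll IV plus remodelin over Coll IV in libraries 4 to 6 called 2 chains, both lower. Col6a1 was lower by log2 -1.46 ± 0.31 (adjusted p = 0.0168) and Col19a1 by -1.09 ± 0.29 (adjusted p = 0.0351). Of all genes 5.71% passed, 3.66% higher and 2.05% lower, so the 2 of 41 chains are near the background. The call was lost for Col6a1 without Coll IV plus remodelin libraries 5 or 6 or Coll IV library 5 (adjusted p up to 0.0622) and for Col19a1 in 5 of 18 omissions (adjusted p up to 0.136). The median log2 fold change of the 41 chains was -0.05.

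Coll IV plus remodelin over saline in libraries 4 to 6 called 10 chains, 3 higher and 7 lower, against 25.9% of all genes, 14.7% higher and 11.2% lower. The 10 of 41 chains are near the share of all genes. Both chains of the common type IV collagen were lower with Coll IV plus remodelin, Col4a1 by log2 -0.55 ± 0.16 (adjusted p = 0.0171) and Col4a2 by -0.55 ± 0.16 (adjusted p = 0.0189). Their libraries 4, 5 and 6 had 9.56, 13.6 and 9.67 CPM of Col4a1 with Coll IV plus remodelin against 16.3, 13.9 and 18.1 CPM with saline, and 13.7, 16.1 and 10.7 CPM of Col4a2 against 22.2, 16.96 and 20.2 CPM, with no overlap. Both calls rested on single libraries, for Col4a1 without Coll IV plus remodelin libraries 4 or 6 or saline libraries 4 or 6 (adjusted p up to 0.0672) and for Col4a2 without Coll IV plus remodelin library 6 or saline library 4 (adjusted p up to 0.0866). In libraries 1 to 3 the same comparison gave 0.11 ± 0.16 for Col4a1 and 0.08 ± 0.16 for Col4a2. In libraries 4 to 6 the 8 pericyte markers summed to 98.5 to 125 CPM with Coll IV plus remodelin and 135 to 155 CPM with saline. The 10 endothelial markers summed to 220.2 to 244 and 223 to 268 CPM, which overlap. Tissue markers differed too, with thalamic neuron sums of 521 to 730.1 CPM with Coll IV plus remodelin and 177 to 195 CPM with saline. The part of these cells and of the tissue sampled in the 2 calls was not tested.

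The other chains lower with Coll IV plus remodelin in libraries 4 to 6 were Col6a1 by log2 -1.66 ± 0.31 (adjusted p = 0.00154), Col19a1 by -1.68 ± 0.29 (adjusted p = 0.000767), Col12a1 by -1.36 ± 0.24 (adjusted p = 0.000956), Col20a1 by -1.12 ± 0.24 (adjusted p = 0.00351) and Col5a1 by -1.08 ± 0.34 (adjusted p = 0.0278). These values share saline libraries 4 to 6 with the set difference in saline given above. Chains higher with Coll IV plus remodelin were Col8a2 by log2 2.87 ± 0.65 (adjusted p = 0.00588), Col6a5 by 2.28 ± 0.69 (adjusted p = 0.0238) and Col2a1 by 2.05 ± 0.57 (adjusted p = 0.0156). The saline side of the last 2 was near the floor, with 8, 10 and 12 counts of Col6a5 and 6, 8 and 2 of Col2a1 in libraries 4, 5 and 6. Choroid plexus markers rose with Col8a2 in this comparison, 10 of 12, beside 14.7% of all genes called higher. In it 9 of 12 thalamic neuron markers and 6 of 8 hypothalamic markers also rose. The 12 cortical and hippocampal neuron markers had lower sums, 1006 to 2063 CPM with Coll IV plus remodelin against 2653 to 2839.8 CPM with saline in libraries 4 to 6. Counts of calls in the other cell type lists are not given for this comparison. The part of these tissues in the values of the chains was not tested. The calls were lost for Col5a1 in 5 of 18 omissions (adjusted p up to 0.142), Col6a5 without Coll IV plus remodelin libraries 4 or 5 or saline libraries 4 or 5 (adjusted p up to 0.106) and Col2a1 without Coll IV plus remodelin library 5 or saline libraries 5 or 6 (adjusted p up to 0.105). Of the 11 fibrillar chains 1 was higher and 1 lower, with a median log2 fold change of -0.17, beside -0.24 ± 0.37 for Col1a1, -0.04 ± 0.32 for Col1a2 and -0.17 ± 0.396 for Col3a1.

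**Figure D5:**
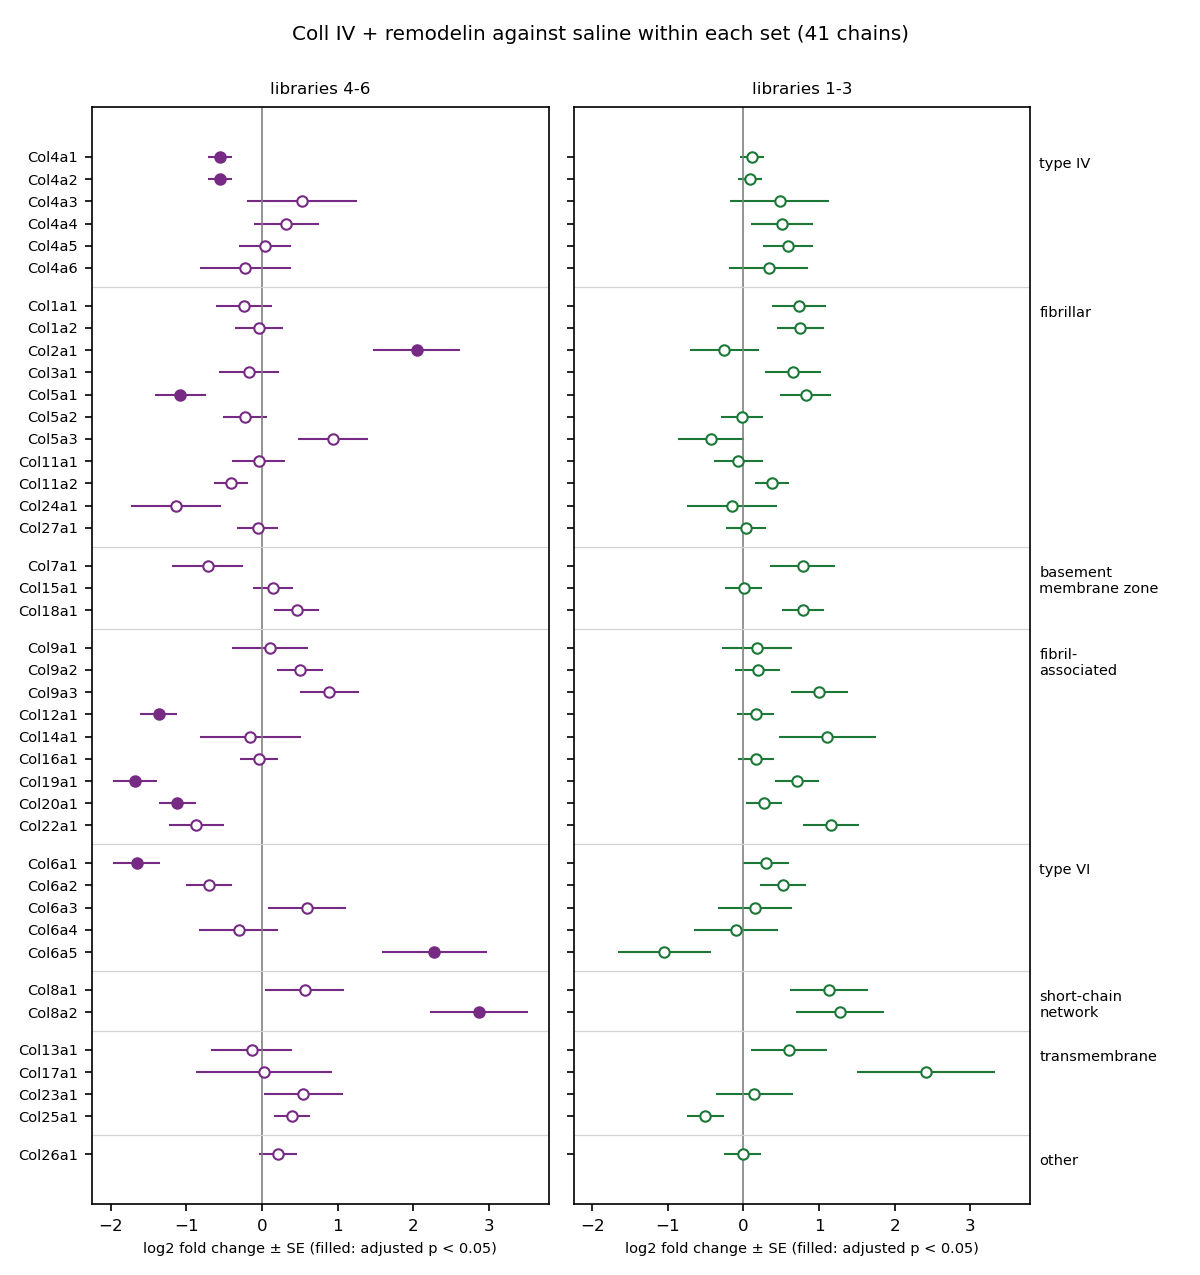
Log2 fold change ± SE of Coll IV plus remodelin over saline for the 41 tested chains by class, within libraries 4 to 6 and within libraries 1 to 3; filled points passed an adjusted p of 0.05. The 10 filled points all lie in the panel of libraries 4 to 6, where Col4a1 and Col4a2 lie at -0.55.

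The difference of Coll IV plus remodelin over saline between the sets was itself tested. It passed for 9 chains, 2 higher and 7 lower in libraries 4 to 6 than in 1 to 3, against 17.9% of all genes, 9.54% higher and 8.37% lower. The 9 of 41 chains are near the share of all genes. Among them were Col4a1 with a log2 difference of -0.67 ± 0.22 (adjusted p = 0.0481), Col6a1 with -1.96 ± 0.44 (adjusted p = 0.00754), Col19a1 with -2.38 ± 0.41 (adjusted p = 0.00181) and Col12a1 with -1.52 ± 0.34 (adjusted p = 0.00713). Col4a2, at -0.63 ± 0.23 (adjusted p = 0.0622), did not pass. The call of Col4a1 was lost in 13 of 18 omissions of a library (adjusted p up to 0.113), and those of Col6a1, Col19a1 and Col12a1 in none. For Coll IV plus remodelin over Coll IV the same difference passed for 0 chains by edgeR, against 0.352% of all genes, and for 1 chain by DESeq2. Under an unadjusted p of 0.05 were 6 of 41 chains and 17% of all genes. For Coll IV over saline it passed for 0 chains and 0% of all genes by edgeR and for 1 chain by DESeq2, and 5 of 41 chains and 11.3% of all genes were under an unadjusted 0.05. Both unadjusted counts are near the share of all genes.

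Genes that make, process or bind collagen were read from lists of pathway members, between libraries 4 to 6 and 1 to 3. Of all genes, 7.16% were called lower and 7.76% higher with Coll IV plus remodelin, 9.78% lower and 8.91% higher with Coll IV, and 19.6% lower and 18.6% higher with saline. Of 19 genes of chain modification and secretion, 3 fell and 0 rose with Coll IV plus remodelin, 8 fell and 0 rose with Coll IV, and 12 fell and 1 rose with saline. Serpinh1, the collagen chaperone, fell by log2 -1.09 with Coll IV and by -1.24 with saline. Plod1, a lysyl hydroxylase, fell by log2 -0.42 with Coll IV plus remodelin, -0.62 with Coll IV and -1.01 with saline. Of 8 tested fibril-binding proteoglycans, 5 fell with Coll IV plus remodelin, 5 with Coll IV and 2 with saline, and 0 rose, and the 2 of 8 in saline are near the 19.6% of all genes. Dcn, encoding decorin, fell by log2 -1.15 with Coll IV plus remodelin, -1.45 with Coll IV and -1.36 with saline, and Lum, encoding lumican, by -1.78 with Coll IV plus remodelin and -2.04 with Coll IV.

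Of 16 other basement membrane genes (laminins, nidogens and their partners), 5 fell with Coll IV plus remodelin, 2 with Coll IV and 3 with saline, and 1 rose, with saline. The counts with Coll IV and with saline are near or below the shares of all genes. Lamb2, the laminin chain of mature vessels, fell by log2 -0.77 with Coll IV plus remodelin, -1.03 with Coll IV and -0.76 with saline. Of 12 tested genes for procollagen cleavage and cross-linking, 1 fell with Coll IV plus remodelin, 4 fell and 1 rose with Coll IV, and 2 fell with saline, so the counts with Coll IV plus remodelin and with saline are near the shares of all genes. Tll1, a tolloid protease, fell in all 3 groups, by log2 -1.15 with Coll IV plus remodelin, -0.83 with Coll IV and -1.15 with saline. Of 8 tested collagen receptors, 3 fell with Coll IV plus remodelin, 3 with Coll IV and 2 with saline, and 0 rose, with the 2 of 8 in saline again near the share of all genes. The integrin chain gene Itga10 fell in each group, by log2 -1.25 with Coll IV plus remodelin, -1.63 with Coll IV and -1.38 with saline.

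For Coll IV plus remodelin over saline in libraries 4 to 6, 7 of 19 modification genes rose and 2 fell, beside 14.7% of all genes higher and 11.2% lower, so the 2 that fell are near the background. P4ha3, a prolyl hydroxylase chain, rose by log2 1.64 and Serpinh1 by 0.94, while the glycosyltransferase genes Colgalt1 and Colgalt2 fell by -0.36 and -1.05. Of the other basement membrane genes, Sparc rose by log2 2.51 and Nid2 by 1.61, and Agrn fell by -0.59. They are single called genes of a longer list, whose count of calls is not given for this comparison. Against Coll IV in the same libraries, P4ha3 rose by log2 1.36, Serpinh1 by 0.69, the proteoglycan gene Prelp by 1.205 and the collagen receptor gene Ddr1 by 0.48. Of all genes, 3.66% were called higher and 2.05% lower there. These genes were picked from several lists, whose counts of calls are not given against Coll IV, so they do not describe the lists.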

How the data were processed

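RNA of 18 thalamus libraries was captured with oligo(dT) beads, per the labels' protocols, and the sources used here do not state strandedness. The authors deposited raw counts and FPKM for 50559 genes; HISAT2, featureCounts and GRCm39 are named in the submitters' processing notes, without versions. The deposited FPKM equal the count over a gene length and the column total for 18117 of 18117 genes counted in every library, at a relative tolerance of 1e-06. The implied lengths are a median 1.90 times the annotated exon length, and 69.3% of the non-zero counts are even, so a count may stand for each end of a fragment; FPKM adds no independent measurement and was used for levels between genes. Counts were also tested halved.

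EdgeR 4.0.16 under R 4.3.3 served as the main test of counts (filterByExpr, TMM, quasi-likelihood F test) on all 18 libraries. A mean per group served the comparisons over all libraries, and a mean per group and set of 3 libraries the others. Benjamini-Hochberg adjustment ran over 18452 genes with a threshold of 0.05. Each log2 fold change has as SE its size over the root of F. DESeq2 1.42.0 and limma 3.58.1 on log2(FPKM + 1), a scale that understates changes of low genes, were alternatives. Ratios were tested by exact permutation. Promoter windows are RefSeq's. Chains and lists were chosen with earlier results of these data known. All 41 tested chains could be named, and the values per library are of chains called in 1 or more comparisons; pathway genes printed are called members, chosen by p or after their values were seen. The values of 1 gene of the pathway lists are not reported here. Reads shared by overlapping genes are uncertain, as for the first exons of Col4a1 and Col4a2.

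Within groups, pairs of libraries differed by a chi-square of at least 11.4 per degree of freedom, so none repeated another. On simulated counts with 200 of 18452 genes changed, the test recovered 70.1% of 2-fold and 97% of 4-fold changes of model over control over all libraries, with 4.3% of calls false. For intervene over model in libraries 4 to 6 it recovered 43.3% and 82.1%, with 3.97% false. The changed genes were drawn only from those above a minimum mean CPM, so these rates do not cover chains at low levels. The simulated counts carried no split into sets. Spread per gene came in both runs from the fit with a mean per group, not from that with a mean per group and set.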

Additional observations from a re-analysis of the deposited data

Results flagged for a closer look

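Single libraries stood far above the other 5 of their group in 16 of 123 sets of 6 values (41 chains in 3 groups), or 13%. The rule used would flag about 5% of sets of independent normal values. These chains share libraries, and each group holds libraries 1 to 3 and 4 to 6, so the 13% cannot be set against that rate. Coll IV plus remodelin library 2 held 7 of the 16. It had 25.0 CPM of Col8a2 against 3.29 to 10.3 in the other 5, 12.03 CPM of Col8a1 against 1.49 to 4.22, and 48.9 CPM of Col9a3 against 11.1 to 20.2. It also had 7.40 CPM of Col20a1 against 3.52 to 4.19, 3.43 CPM of Col5a3 against 1.61 to 1.91, 2.46 CPM of Col17a1 against 0.124 to 0.615, and 1.71 CPM of Col4a3 against 0.0713 to 0.469. The same library had the highest choroid plexus marker sum, 12164 CPM.

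Saline library 2 held another 7. It had 12.8 CPM of Col1a1 against 3.85 to 7.05 in the other 5, 7.78 CPM of Col3a1 against 1.28 to 3.45, 4.58 CPM of Col5a2 against 1.39 to 2.52, and 7.35 CPM of Col18a1 against 1.82 to 3.45. It also had 19.2 CPM of Col9a2 against 6.41 to 9.82, 17.7 CPM of Col23a1 against 3.78 to 5.03, and 4.52 CPM of Col4a5 against 1.39 to 2.38. Its meningeal fibroblast markers summed to 222 CPM, the highest of the saline libraries. In the Coll IV group, library 2 had 12.6 CPM of Col16a1 against 4.16 to 7.31, and library 1 had 5.61 CPM of Col5a3 against 1.17 to 2.75.

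The log2 fold change of Coll IV plus remodelin over saline differed between libraries 4 to 6 and 1 to 3 for 9 chains, by a test of the difference itself (edgeR, adjusted over all genes). It was higher in libraries 4 to 6 for Col6a5 by 3.33 and for Col2a1 by 2.30. It was lower by a difference of -2.38 for Col19a1, -2.03 for Col22a1, -1.96 for Col6a1, -1.90 for Col5a1, -1.52 for Col12a1, -1.39 for Col20a1 and -0.67 for Col4a1. These differences include those between the sets in saline, where 38.2% of all genes were called. The test of the difference itself called 17.9% of all genes, and the 9 of 41 chains are near that share. Of 18 omissions of a library, 13 lost the call of Col4a1, 9 that of Col2a1 and 3 that of Col6a5.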

How the results depend on the processing

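Of 66 called pairs of a chain and a comparison, 27 passed under every alternative, 38 were lost on leaving out at least 1 library and 25 under at least 1 other setting. None of 1605 values of called pairs changed sign. For Coll IV plus remodelin over Coll IV in libraries 4 to 6, where 2 chains passed, DESeq2 called 5 and the replicate block 1. For Coll IV plus remodelin over saline in libraries 4 to 6, where 10 passed, limma on log2(FPKM + 1) called 6. Between sets with Coll IV, where 14 passed, no filter on low counts gave 9 and limma gave 9. For the difference between sets of Coll IV over saline and of Coll IV plus remodelin over Coll IV, where 0 passed, DESeq2 called 1 each. For the difference between sets of Coll IV plus remodelin over saline, where 9 passed, the replicate block gave 6 and limma 6. The causes were not tested.

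Leaving out 1 library at a time gave 0 to 5 calls for Coll IV plus remodelin over Coll IV in libraries 4 to 6, with 0 without Coll IV library 5 or Coll IV plus remodelin library 5. It gave 6 to 11 for Coll IV plus remodelin over saline there, and 6 to 12 for the difference of that comparison between sets. Between sets it gave 6 to 13 with Coll IV plus remodelin, 3 to 15 with Coll IV and 14 to 21 with saline. For the difference between sets of Coll IV plus remodelin over Coll IV it gave 0 to 3, with 3 without Coll IV plus remodelin library 2. The other comparisons stayed at 0 calls. The replicate block kept 0 calls over all libraries and gave 9 for Coll IV plus remodelin over saline in libraries 4 to 6. The difference of libraries 4 to 6 from 1 to 3 within 1 group could not be fitted with it, since each number lies in 1 set. Same-numbered libraries correlated over 0.1 in 6 of 6 pairs of Coll IV and saline by deviations from group means, which carry the split into sets, but in 3 of 6 by deviations from the mean of group and set, and in 1 and 0 of 6 for Coll IV plus remodelin with Coll IV and with saline. By those deviations the closest match of a library was its own number in 5 of 12 cases for Coll IV and saline. It was so in 2 and 1 of 12 for Coll IV plus remodelin with Coll IV and with saline. With 3 libraries per group and set, this check cannot decide whether same-numbered libraries were paired. The Col1a1 to Col4a1 log2 ratio between sets ranged from -1.39 to -1.17 with p from 0.00025, the smallest the test can give, to 0.001. The same ratio for Coll IV over saline ranged from -0.31 to 0.031, positive only without saline library 2 among the 12 omissions. No scaling moved the median of all genes by over 0.1. FPKM scaled by TMM moved the median level of 0 of 44 chains by more than 1 SD between libraries. Depth limits most the 3 chains below the filter, with at most 25 counts in a library. It also limits the calls that use saline libraries 4, 5 and 6 for Col2a1, with 6, 8 and 2 counts, and for Col6a5, with 8, 10 and 12.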
